A study of Mus musculus with 18 samples.

Results

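The genes described here encode nucleoporins, the proteins that build the nuclear pore, and the receptors and Ran-cycle proteins that carry cargo through it. They were taken by symbol: every gene with a single platform symbol of the Nup, Kpna, Kpnb, Ipo, Xpo, Tnpo, Ranbp or Nxt families, with Ran, Rangap1 and Nxf1. The rule found 55 genes among the 18193 genes that a probe set of the array names by 1 symbol. Each gene was read at its probe set of the highest mean, and 51 of the 55 were among the 11106 genes that passed the filter on signal. The other 4, Kpna7, Nup210l, Ranbp17 and Ranbp3l, exceeded the filter's limit, a signal of 15.2, in at most 1 of the 18 arrays and were not tested. The families also bring in Ranbp9 and Ranbp10, which are named for binding Ran and are not parts of the pore or transport receptors.

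The nuclear pore is a channel through the nuclear envelope, built of outer rings with a Y-shaped complex, an inner ring, a central channel lined with phenylalanine-glycine repeats, filaments on the cytoplasmic side and a basket on the nuclear side. Importins bind cargo in the cytoplasm and release it in the nucleus when they meet Ran bound to GTP, exportins bind cargo together with that form of Ran, and Rangap1 and Ranbp1 drive the turnover of its GTP outside the nucleus. Most messenger RNA leaves through another receptor, the dimer of Nxf1 and Nxt1. Lymphocytes that leave rest grow before they divide, and traffic of ribosomal proteins, ribosomal subunits and transcription factors through the pore belongs to that growth.

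RNA was measured on 18 Affymetrix Mouse Genome 430 2.0 arrays, with 1 array for each sample of CD23+ B lymphocytes from spleens of C57BL/6J mice. The study's title names BTK inhibition, and its design text asks what PF-303, a BTK inhibitor, does when B cells are activated in vivo by an antibody against IgD. The groups were PBS after vehicle (n = 4), anti-IgD after vehicle (n = 4), PBS after PF-303 (n = 5) and anti-IgD after PF-303 (n = 5). The drug or its vehicle went in 2 h ahead of anti-IgD or PBS, and the spleen cells were harvested another 2 h later. Genotype and age are not given in the labels, and no allele or transgene is named. Whether each sample is a separate mouse is not stated in the labels, so p-values here reflect sample-to-sample spread, part of which may be technical. In RNA from a bulk of sorted cells, fewer cells of a type and less RNA per cell cannot be told apart.

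All 7 tested follicular B-cell markers, including Ms4a1 (the gene of CD20) and Fcer2a (the gene of CD23), were above the filter in every array. That held for 1 of 6 T-cell, 1 of 5 neutrophil, 2 of 4 NK-cell, 5 of 5 plasma-cell and 0 of 3 erythroid markers. The summed signal of the B-cell markers was 14237 to 16930 in the anti-IgD and vehicle arrays, below the 19931 to 37385 of the other 3 groups, and that of 5 plasma-cell markers was 6006 to 6476 with anti-IgD and vehicle against 4312 to 4420 with PBS and vehicle. Of these 5, mean signals went from 505 to 2268 for Irf4, from 1607 to 1870.2 for Xbp1 and from 27.1 to 74.4 for Prdm1, but from 79.7 to 36.0 for Sdc1 and from 2145 to 2031 for Jchain. Summed macrophage markers, 4 of 5 above the filter in every array, ran from 827 to 2894 with anti-IgD and vehicle and from 1376 to 1946 with PBS and vehicle, and T-cell markers summed to at most 106 in any array. From PBS to anti-IgD with vehicle, mean signals went from 79.1 to 278 for Cd14 and from 1135 to 1594 for Lyz2. They went from 77.7 to 86.2 for Adgre1 and from 60.6 to 72.0 for Cd68, but from 318 to 267 for Csf1r. Neutrophil markers summed to at most 850 in any array and NK-cell markers to at most 202. The part of these markers in the results was not tested. Hybridisation spike-ins stood over 2 times the median in 6 arrays (2 in each group except anti-IgD with vehicle, where there were 0), and counts that change without them are given beside the result. The ratio of 3′ to 5′ control signal, a reading of RNA quality, was highest in 2 of these 6. It was 1.53 for Actb and 1.22 for Gapdh in PBS and vehicle replicate 4, and 1.40 and 1.11 in anti-IgD and PF-303 replicate 1. Every other array had at most 1.32 for Actb and 0.83 for Gapdh.

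Anti-IgD raised the RNA of 21 of the 51 genes in vehicle-treated mice and lowered 4 (limma on log2(signal + 16), Benjamini-Hochberg adjusted p below 0.05). Among all 11106 genes the same test called 17.4% higher and 30.6% lower, beside 41.2% and 7.84% of the 51. The median change was 0.20 on the log2 scale for the 51 genes and -0.13 for all genes. The 21 included importins (Ipo4, Ipo5, Ipo7, Kpnb1, Kpna1, Kpna2, Kpna3), all 4 tested genes of the Ran cycle (Ran, Ranbp1, Ranbp3, Rangap1), the tRNA exportin Xpot, the mRNA export cofactor Nxt1 and 8 nucleoporins (Nup133, Nup43, Nup205, Nup93, Nup62, Nup54, Ranbp2, Nup153). The 4 that fell were the export receptor Xpo1, Ranbp10, the pore membrane protein Nup210 and Ipo8. The ranges of the 2 groups did not overlap for 18 higher and 5 lower genes of the 51, against 15.2% and 27.2% of all genes. Without the 6 arrays of high spike-in level 23 rose and 3 fell. When each array was shifted to one median the split of the 51 genes moved to 32 higher and 2 lower, that of all genes to 25% higher and 19.6% lower, and the median of all genes to 0.04.

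PF-303 lowered 18 of the 51 genes in mice given anti-IgD and raised 3, where 10.4% of all genes were lower and 19.8% higher. The 18 all belonged to the 21 that anti-IgD raised, and the 3 (Xpo1, Ranbp10 and Ipo8) to the 4 that it lowered, but both comparisons use the same 4 anti-IgD and vehicle arrays, so the overlap is not a separate result. The median was -0.17 for the 51 genes and 0.08 for all genes, and the ranges did not overlap for 15 lower and 2 higher genes (9.32% and 17.5% of all genes). Without the 6 arrays of high spike-in level 20 were lower and 2 higher. With arrays shifted to one median 27 were lower and 1 higher, against 15.3% and 11.5% of all genes. With the row letter of the sample's position code as a block 10 stayed lower and 1 higher. Of all 11106 genes 656 were then lower and 1069 higher, against 1150 and 2202 without the block. Row C was the only row that the 2 anti-IgD groups shared. Without anti-IgD and vehicle replicate 2 only 1 of the 51 was higher.

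In mice given PBS, PF-303 lowered 1 of the 51 genes, Ipo4, and raised 0, against 0.675% lower and 0.072% higher of all genes by limma. At an unadjusted p below 0.05 there were 14 of the 51 (27.5%) and 1176 of all 11106 genes (10.6%), and the median was -0.08 (0.01 for all genes). Groups did not overlap for 4 genes, all lower with PF-303 (Ipo4, Ipo7, Nup62 and Nxf1), where 2.42% of all genes lay apart in that direction and 1.68% in the other.

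The response to anti-IgD was also measured in PF-303-treated mice, whose group means did not enter the fold changes with vehicle. Standard errors and p-values of both responses came from the same fit to all arrays. The filter and the choice of probe set used all arrays too, so the calls of the responses are not fully separate. In PF-303-treated mice 15 genes rose and 3 fell, against 14.7% and 19.1% of all genes. The median was 0.15 (-0.05 for all genes), and ranges lay apart for 13 higher and 3 lower genes (11.2% and 13.6% of all genes). Without the 6 arrays of high spike-in level 16 rose and 3 fell, and without anti-IgD and PF-303 replicate 1 the median was 0.10. Of the 21 genes that rose with vehicle, 13 also rose with PF-303 and 8 did not pass the test (Kpna1, Kpna3, Kpnb1, Nup153, Nup205, Nup54, Nup93 and Ranbp3). All 21 had the same sign and a smaller change with PF-303, with medians of 0.62 with vehicle and 0.38 with PF-303. Among all 1928 genes that rose with vehicle, 64.9% also rose with PF-303, 84.5% had a smaller change and the medians were 0.58 and 0.36. Nup188, Nup98 and Xpo7 passed the test with PF-303 alone, which does not show that their 2 responses differed.

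The test of the difference between the 2 responses called 2 of the 51 genes, Ipo7 and Kpna3, both with a smaller rise under PF-303, where 3.12% of all genes were called in that direction and 6.66% in the other. At an unadjusted p below 0.05 there were 10 of the 51 (19.6%) and 2679 of all 11106 genes (24.1%), and the median difference was -0.07 (0.07 for all genes). The count was 10 lower with arrays shifted to one median, where 6.19% of all genes were lower and 3.11% higher. It was 9 with the mean over each gene's probe sets, where 482 of all 11106 genes were lower and 791 higher. With the position-code row as a block it was 0, where 102 of all genes were lower and 189 higher, against 346 and 740 without the block. It was 4 without PBS and vehicle replicate 2 or PBS and PF-303 replicate 3, and 1 without anti-IgD and vehicle replicate 1 or 5, PBS and PF-303 replicate 2 or 5, or anti-IgD and PF-303 replicate 2 or 3.

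**Figure D1:**
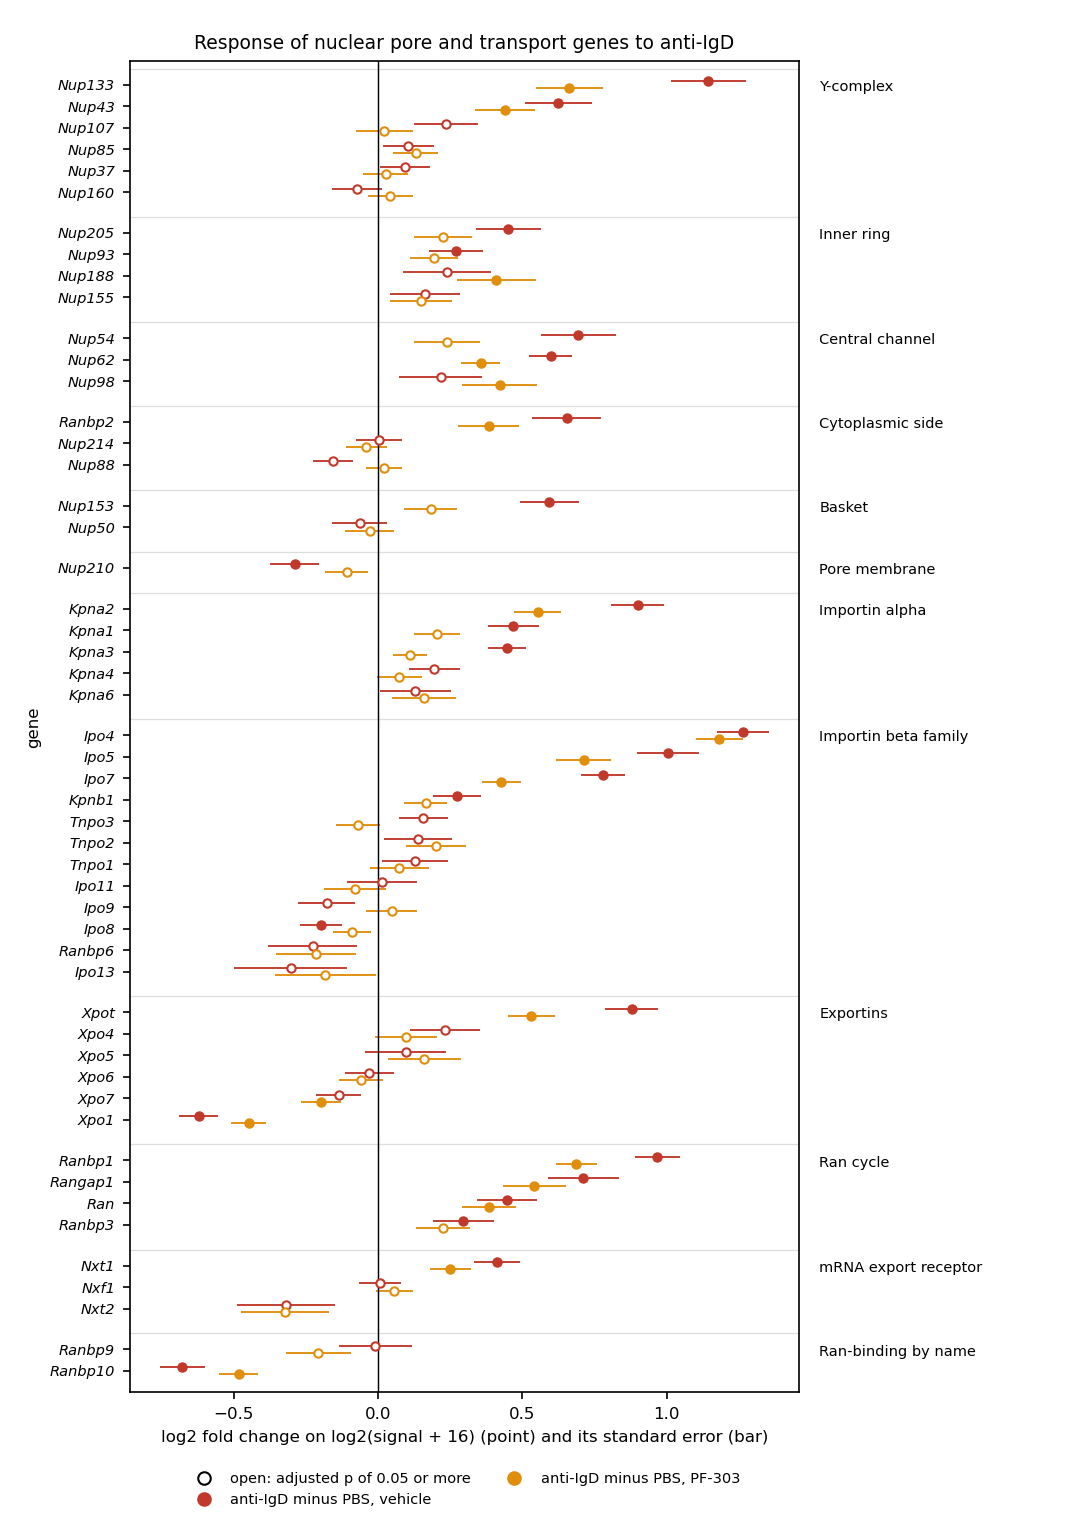
Log2 fold change of anti-IgD against PBS for the 51 tested genes, grouped by role, in mice given vehicle and in mice given PF-303. Points are the fitted changes, bars their standard errors, and filled points have an adjusted p below 0.05. The points of the 21 genes that rose with vehicle lie further from 0 than their PF-303 points.

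Promoter sequences are shown for genes that rose, because several of them share a short motif that is known as the E-box of Myc and USF. The CACGTG letters, which read the same on both strands, were searched from 250 bases before to 50 after each start in RefSeq promoters (GRCm38.p6), which hold 45 of the 55 genes with 55 promoters. They were found in 9 genes, in 16.4% of the 55 promoters and in 7.15% of all 32851 promoters. Of the matched genes, 7 of the 17 that anti-IgD raised carried it, and so did 2 of the 25 others that were tested (Nup188 and Tnpo2). These 2 hold it at 2 places each, and their windows are not printed. The windows of the 7 are printed 5′ to 3′ on the gene's strand, with CACGTG in capitals. They are chr5:92435267-92435326 (Nup54, minus strand), chr5:129020011-129020070 (Ran, plus), chr7:110018151-110018210 (Ipo7, plus), chr8:94214362-94214421 (Nup93, plus), chr10:58446738-58446797 (Ranbp2, plus), chr10:121626523-121626582 (Xpot, minus) and chr14:55635653-55635682 (Ipo4, minus).
Nup54: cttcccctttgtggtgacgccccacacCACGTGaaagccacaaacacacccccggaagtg
Ran: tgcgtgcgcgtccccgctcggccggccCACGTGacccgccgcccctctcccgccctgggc
Ipo7: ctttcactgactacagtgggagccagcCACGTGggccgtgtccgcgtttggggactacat
Nup93: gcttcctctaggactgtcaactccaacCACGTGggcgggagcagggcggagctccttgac
Ranbp2: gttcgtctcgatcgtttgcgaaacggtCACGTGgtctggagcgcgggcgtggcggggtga
Xpot: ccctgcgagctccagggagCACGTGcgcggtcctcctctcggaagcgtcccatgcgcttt
Ipo4: tgtcggagtctcCACGTGccgatcctcccc

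Counted from the start, the motif begins at base -100 in Nup54, -118 in Ran, -137 in Ipo7, -175 in Nup93, -87 in Ranbp2, -231 in Xpot and 15 in Ipo4, which is just past the start. A match is a description of the letters and shows no binding. The share with CACGTG among all genes that anti-IgD raised is not given here.

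The promoter of Nup133, the nucleoporin with the largest rise, held no CACGTG in this window but held TGACGTCA, the full cyclic AMP response element, at 2 places. TGACGTCA, also the same on both strands, was in 1.79% of all promoters and 5.45% of the 55 promoters of these genes. It lay in 3 of the 45 genes (Nup133, Nup214 and Ranbp6), of which Nup133 alone was called. The window is chr8:123949315-123949399 on the minus strand, with the motif in capitals at bases -124 and -67.
Nup133: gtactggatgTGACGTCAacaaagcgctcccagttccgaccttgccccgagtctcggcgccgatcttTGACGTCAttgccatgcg

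The other motifs searched, each on both strands, were CCGGAAG and the consensus site of NRF1. CCGGAAG, the core of ETS-factor sites, lay in 8 of the 45 genes (2 of the 17 that rose, 6 of the 25 others tested). It was in 16.4% of the 55 promoters and in 8.86% of all promoters. The NRF1 site lay in 5 genes (2 of the 17, 3 of the 25), in 9.09% of the 55 promoters and in 0.971% of all promoters.

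Among the Y-complex of the outer rings, 2 of 6 genes rose with anti-IgD, Nup133 and Nup43. Nup133, which sits at the end of the Y's stem, gave signals of 254, 302, 259 and 177 with PBS and vehicle, 595, 470.2, 591 and 590.4 with anti-IgD and vehicle, 224, 253, 255, 251 and 274 with PBS and PF-303, and 307, 425, 457, 439 and 424 with anti-IgD and PF-303. Every anti-IgD array stood above every PBS array of the same treatment, and the 5 PF-303 arrays with anti-IgD stood below the 4 with vehicle. The change with anti-IgD was 1.14 ± 0.13 (log2, SE; adjusted p = 2.1e-07) with vehicle and 0.66 ± 0.12 (adjusted p = 0.00011) with PF-303, and PF-303 changed the anti-IgD level by -0.44 ± 0.12 (adjusted p = 0.0087). The difference between the responses was -0.48 ± 0.17 and missed the threshold (adjusted p = 0.084). Nup43, a smaller member of the Y, changed by 0.62 ± 0.12 with vehicle and 0.44 ± 0.10 with PF-303. At its second probe set the change with PF-303 was 0.21 ± 0.11 and did not pass. The other 4 (Nup107, Nup160, Nup37 and Nup85) were called in no comparison, with changes from -0.07 to 0.23 with vehicle.

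In the inner ring 2 of 4 rose with vehicle. Nup205, a large scaffold protein, averaged 349 ± 55.0 (SD, n = 4) with PBS and 480.4 ± 41.9 (n = 4) with anti-IgD, a change of 0.45 ± 0.11 (adjusted p = 0.0021), although 1 PBS array at 429.6 exceeded the lowest anti-IgD array at 428. PF-303 changed its anti-IgD level by -0.44 ± 0.11 (adjusted p = 0.0033), with no overlap of the groups. Neither call was made at the gene's second probe set, where the changes were 0.10 ± 0.16 and -0.08 ± 0.16. Nup93, which links the inner ring to the channel, changed by 0.27 ± 0.09 (adjusted p = 0.020) with overlapping groups. Its call was lost without PBS and vehicle replicate 3 or anti-IgD and vehicle replicate 4 or 5, where the change was 0.19 to 0.34 over all such fits, and without the 6 arrays of high spike-in level. Nup188 rose by 0.41 ± 0.14 (adjusted p = 0.024) with PF-303, a call lost without PBS and PF-303 replicate 1 or 2 or anti-IgD and PF-303 replicate 2 or 3, and showed 0.24 ± 0.15 with vehicle. Nup155 was called in no comparison.

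Of the 3 tested channel genes Nup62 and Nup54 rose. Both proteins belong to the meshwork of phenylalanine-glycine repeats that selects what passes. Nup54 gave 556, 569, 501 and 439 with PBS and vehicle, 783, 872, 805 and 911 with anti-IgD and vehicle, 520.4, 626, 358, 496 and 564 with PBS and PF-303, and 605, 694, 564, 498 and 651 with anti-IgD and PF-303. The vehicle groups did not overlap, whereas the PF-303 groups did. Its change was 0.69 ± 0.13 (adjusted p = 0.00012) with vehicle and 0.24 ± 0.12 (adjusted p = 0.12) with PF-303, and the difference of -0.46 ± 0.17 did not pass (adjusted p = 0.10). Nup62 averaged 906 ± 73.7 and 1378 ± 78.1 (SD, n = 4 each) without and with anti-IgD in vehicle mice, and 758 ± 32.7 and 975 ± 52.4 (n = 5 each) in PF-303 mice, with no overlap in either. It rose by 0.60 ± 0.07 with vehicle and by 0.36 ± 0.07 with PF-303. The probe sets read for Nup54 and Nup62 can match other sequences. With such probe sets left out, the rise with PF-303 was called for Nup54 and not for Nup62. The difference between the responses was then called for both genes.

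Nup98 is a mobile channel protein that also binds genes inside the nucleus. It gave 331, 306, 349 and 511 with PBS and vehicle, 429.7, 407, 421 and 459.6 with anti-IgD and vehicle, 308, 316, 318, 285 and 359 with PBS and PF-303, and 629.7, 430.3, 356, 381 and 396 with anti-IgD and PF-303. The highest PBS and vehicle array and the highest anti-IgD and PF-303 array stood well above the rest of their groups, and both pairs of groups overlapped. These were PBS and vehicle replicate 4 and anti-IgD and PF-303 replicate 1, the 2 arrays of the highest 3′ to 5′ ratio. The part of that ratio was not tested. The vehicle change of 0.22 ± 0.14 (95% interval -0.07 to 0.50) was not called and was called without PBS and vehicle replicate 4. With PF-303 it was 0.42 ± 0.13 (adjusted p = 0.014).

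On the cytoplasmic side Ranbp2, the giant filament protein that binds Ran and Rangap1, rose by 0.65 ± 0.12 (adjusted p = 9.1e-05), from 607 ± 105 to 959 ± 125 (SD, n = 4 each) with no overlap. PF-303 changed its anti-IgD level by -0.39 ± 0.11 (adjusted p = 0.012), a call lost without anti-IgD and vehicle replicate 1. Nup88 and Nup214, which form the platform for the last steps of mRNA export, were called in no comparison (-0.16 ± 0.07 and 0.00 ± 0.08 with vehicle). At the second probe set of Nup214, however, PF-303 lowered the anti-IgD level. In the basket Nup153, which anchors it to the pore, rose by 0.59 ± 0.10 (adjusted p = 4.8e-05) with vehicle and showed 0.18 ± 0.09 (adjusted p = 0.14) with PF-303, while Nup50 showed -0.06 ± 0.09 with vehicle. Nup210, a glycoprotein of the pore membrane, fell by 0.29 on the log2 scale (SE 0.08, adjusted p = 0.0071), from 705 to 883 with PBS to 591 to 674 with anti-IgD, and that call was absent when the 6 arrays of high spike-in level were left out and when arrays were shifted to one median.

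Of 5 tested importin alpha genes 3 rose with vehicle. These adaptors bind the classical nuclear localization signal and hand it to Kpnb1. Kpna2 gave 608, 760.1, 586 and 546 with PBS and vehicle, 1206, 1161, 1102 and 1216 with anti-IgD and vehicle, 531, 601, 516, 504 and 612 with PBS and PF-303, and 867, 753, 829, 838 and 796 with anti-IgD and PF-303. The anti-IgD arrays lay above the PBS arrays in both treatments, and with anti-IgD the PF-303 arrays lay below the vehicle arrays. Its change was 0.90 ± 0.09 (adjusted p = 3.8e-08) with vehicle and 0.55 ± 0.08 (adjusted p = 1.3e-05) with PF-303, and the difference of -0.35 ± 0.12 (adjusted p = 0.075) was not called, except without PBS and vehicle replicate 2, with the stricter filter or with arrays shifted to one median.

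Kpna3 was 1 of the 2 genes whose responses differed. It gave 276, 271, 283 and 279 with PBS and vehicle, 387, 378, 389.5 and 381 with anti-IgD and vehicle, 269.6, 269.6, 255, 296 and 273 with PBS and PF-303, and 315, 289, 306, 272 and 295 with anti-IgD and PF-303. The vehicle groups were far apart and tight, and with PF-303 the groups overlapped. The change was 0.45 ± 0.07 (adjusted p = 8.0e-06) with vehicle and 0.11 ± 0.06 (adjusted p = 0.17) with PF-303, and their difference -0.34 ± 0.09 (adjusted p = 0.020) was called in all 18 fits that each left out 1 array, at -0.36 to -0.31, but not with the position-code row as a block. Kpna1 rose by 0.47 ± 0.09 (adjusted p = 0.00015) with vehicle and showed 0.20 ± 0.08 (adjusted p = 0.052) with PF-303. Kpna4 and Kpna6 were called in no comparison (0.20 ± 0.09 and 0.13 ± 0.12 with vehicle).

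Of 12 tested importin beta family genes 4 rose and 1 fell with vehicle. Ipo4, an import receptor with ribosomal proteins and histones among its cargo, had the largest rise of the 51. Its signals were 288, 261, 334 and 339.9 with PBS and vehicle, 786, 697, 767 and 759 with anti-IgD and vehicle, 193, 189, 176, 195 and 167 with PBS and PF-303, and 465, 400.2, 475, 472 and 385 with anti-IgD and PF-303. None of the 4 groups overlapped with another. Anti-IgD changed it by 1.26 ± 0.09 (adjusted p = 1.9e-10) with vehicle and by 1.18 ± 0.08 (adjusted p = 1.7e-10) with PF-303, and the difference between the 2 was -0.08 ± 0.12 (95% interval -0.32 to 0.16). PF-303 changed it by -0.68 ± 0.09 (adjusted p = 8.6e-05) in PBS mice and by -0.76 ± 0.09 (adjusted p = 9.6e-07) in anti-IgD mice. These estimates are close on the log2 scale, but the interval above does not show that they are equal. Mean signals went from 306 to 184 in PBS mice and from 752 to 439 in anti-IgD mice. The call in PBS mice was not made at the gene's other probe set, where the change was -0.51 (adjusted p = 0.11 over probe sets).

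Ipo5 imports ribosomal proteins and core histones. It gave 375, 429, 354 and 441 with PBS and vehicle, 831, 666, 899 and 885 with anti-IgD and vehicle, 319.9, 347, 295, 304 and 360.1 with PBS and PF-303, and 659, 568, 475, 499 and 523 with anti-IgD and PF-303. Anti-IgD and PBS arrays lay apart in both treatments. The change was 1.004 ± 0.107 (adjusted p = 8.7e-08) with vehicle and 0.71 ± 0.10 (adjusted p = 4.2e-06) with PF-303, and PF-303 changed the anti-IgD level by -0.58 ± 0.10 (adjusted p = 0.00016).

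Ipo7, which imports ribosomal proteins and, with Kpnb1, linker histone, was the other gene whose responses differed. It gave 668, 671, 653 and 659 with PBS and vehicle, 1168, 1083, 1186 and 1163 with anti-IgD and vehicle, 577, 591, 549, 533 and 630.2 with PBS and PF-303, and 889, 751, 689, 785 and 792 with anti-IgD and PF-303. All 4 groups lay apart, with the PBS and PF-303 arrays lowest. Its change was 0.78 ± 0.08 (adjusted p = 2.1e-08) with vehicle and 0.43 ± 0.07 (adjusted p = 3.5e-05) with PF-303. The difference of -0.35 ± 0.10 (adjusted p = 0.031) lost its call without any 1 of 7 arrays (anti-IgD and vehicle replicates 1, 4 and 5, PBS and PF-303 replicates 2 and 5, anti-IgD and PF-303 replicates 2 and 3), at -0.40 to -0.31 over all 18 such fits. Nor was it called with the replicate number or the position-code row as a block.

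Kpnb1, the receptor that importin alpha binds, gave 502, 499.9, 541 and 559.9 with PBS and vehicle, 655, 584, 661 and 656 with anti-IgD and vehicle, 479, 477, 502, 474 and 501 with PBS and PF-303, and 651, 494, 487, 588 and 531 with anti-IgD and PF-303. The vehicle groups lay apart and the PF-303 groups overlapped. It rose by 0.27 ± 0.08 (adjusted p = 0.0090) with vehicle, against 0.16 ± 0.07 (adjusted p = 0.096) with PF-303, which was called without anti-IgD and PF-303 replicate 3. PF-303 changed the anti-IgD level by -0.22 ± 0.08 (adjusted p = 0.041), a call lost without any 1 of 7 arrays (anti-IgD and vehicle replicates 1, 4 and 5, PBS and PF-303 replicate 1, anti-IgD and PF-303 replicates 2, 3 and 5). Ipo8, a relative of Ipo7, fell with vehicle by 0.20 on the log2 scale (SE 0.07, adjusted p = 0.030). That call was lost without PBS and vehicle replicate 3 or 4 or anti-IgD and vehicle replicate 1, 2 or 5, and its PF-303 call (0.19 ± 0.07, adjusted p = 0.045) was lost in 12 of the 18 fits that each left out 1 array. The other 7 (Ipo9, Ipo11, Ipo13, Tnpo1, Tnpo2, Tnpo3 and Ranbp6) were called in no comparison, with vehicle changes from -0.30 to 0.16.

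The 6 tested exportins went in both directions. Xpo1, the general export receptor for leucine-rich export signals and for ribosomal subunits, gave 889.6, 907, 922 and 848 with PBS and vehicle, 595, 575, 545 and 581 with anti-IgD and vehicle, 816, 931, 915, 897 and 959.8 with PBS and PF-303, and 619, 689, 646, 654 and 682 with anti-IgD and PF-303. All anti-IgD arrays lay below all PBS arrays, and those with PF-303 lay above those with vehicle. Its change was -0.62 ± 0.07 (adjusted p = 1.1e-07) with vehicle and -0.45 ± 0.06 (adjusted p = 4.2e-06) with PF-303. The 0.19 ± 0.06 (adjusted p = 0.027) by which PF-303 raised the anti-IgD level was not called without anti-IgD and vehicle replicate 2 or 4 or anti-IgD and PF-303 replicate 2 or 5, nor with arrays shifted to one median.

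Xpot, the exportin for tRNA, moved the other way. It gave 501, 483, 414 and 498 with PBS and vehicle, 867, 793, 911 and 970.1 with anti-IgD and vehicle, 419.7, 429, 359, 396 and 461 with PBS and PF-303, and 686, 624, 577, 527 and 605 with anti-IgD and PF-303. Anti-IgD arrays lay above PBS arrays in both treatments and the PF-303 group lay below the vehicle group under anti-IgD. The change was 0.88 ± 0.09 (adjusted p = 6.3e-08) with vehicle and 0.53 ± 0.08 (adjusted p = 2.5e-05) with PF-303, and PF-303 changed the anti-IgD level by -0.54 ± 0.09 (adjusted p = 6.0e-05). Xpo7 fell with PF-303 (-0.20 ± 0.07, adjusted p = 0.033), a call lost without PBS and PF-303 replicate 2 or 4 or anti-IgD and PF-303 replicate 1 or 3, while Xpo4, Xpo5 and Xpo6 were called in no comparison.

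All 4 tested genes of the Ran cycle rose with vehicle. Ran itself, the GTPase whose nucleotide state sets the direction of transport, gave 2479, 2638, 2494 and 2525 with PBS and vehicle, 3346, 3827, 2955 and 3764 with anti-IgD and vehicle, 2467, 2427, 2609, 2932 and 2411 with PBS and PF-303, and 3424, 3491, 3857, 2955 and 3089 with anti-IgD and PF-303. Anti-IgD arrays lay above PBS arrays in both treatments, and the 2 anti-IgD groups overlapped. It rose by 0.45 ± 0.10 (adjusted p = 0.0012) with vehicle and by 0.38 ± 0.09 (adjusted p = 0.0026) with PF-303. This probe set can match other sequences, and the gene's other probe sets are described further on.

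Ranbp1 helps Rangap1 to trigger GTP hydrolysis by Ran. It gave 1110.2, 1129.6, 969 and 1019 with PBS and vehicle, 2139, 1996, 2027 and 2153 with anti-IgD and vehicle, 968, 884, 823, 883 and 982 with PBS and PF-303, and 1404, 1444, 1559.9, 1551 and 1394 with anti-IgD and PF-303. The 4 anti-IgD and vehicle arrays were the highest and the 5 anti-IgD and PF-303 arrays came next, with no overlap. Its change was 0.97 ± 0.08 (adjusted p = 1.2e-09) with vehicle and 0.69 ± 0.07 (adjusted p = 7.6e-08) with PF-303.

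Rangap1, the GTPase-activating protein of Ran, gave 181, 139, 188 and 206 with PBS and vehicle, 323, 255, 373 and 262 with anti-IgD and vehicle, 141, 134, 139, 142 and 121 with PBS and PF-303, and 237, 176, 212, 220.4 and 181 with anti-IgD and PF-303. Groups with and without anti-IgD did not overlap. It rose by 0.71 ± 0.12 (adjusted p = 5.0e-05) with vehicle and by 0.54 ± 0.11 (adjusted p = 0.00050) with PF-303. The call with PF-303 was lost at its second probe set (0.17 ± 0.08) and with the mean over its probe sets (0.11). Ranbp3, a cofactor of export by Xpo1, rose by 0.29 ± 0.11 (adjusted p = 0.025) with overlapping groups. That call was lost without PBS and vehicle replicate 1 or 2 or anti-IgD and vehicle replicate 1 or 4, and its PF-303 call under anti-IgD (-0.27 ± 0.10, adjusted p = 0.044) was lost without any 1 of 8 arrays (anti-IgD and vehicle replicates 1, 4 and 5, PBS and PF-303 replicate 2, anti-IgD and PF-303 replicates 1, 2, 3 and 5).

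Of the mRNA export receptor, the small subunit rose and the large one was not called. Nxf1 gave 819, 770.3, 807 and 764 with PBS and vehicle, 848, 728, 814 and 789.7 with anti-IgD and vehicle, 686, 662, 659.6, 682 and 722 with PBS and PF-303, and 662, 719, 687, 807 and 682 with anti-IgD and PF-303. The 2 vehicle groups overlapped almost fully, and the 5 PBS and PF-303 arrays lay below the 4 PBS and vehicle arrays. Its change with anti-IgD was 0.01 ± 0.07 (95% interval -0.13 to 0.15) with vehicle, and the PF-303 change in PBS mice of -0.21 ± 0.07 was not called (adjusted p = 0.22). The PF-303 change under anti-IgD, -0.16 ± 0.07 (adjusted p = 0.088), was called without anti-IgD and vehicle replicate 2 or anti-IgD and PF-303 replicate 4. Nxt1 rose by 0.41 ± 0.08 (adjusted p = 0.00017) with vehicle and by 0.25 ± 0.07 (adjusted p = 0.0083) with PF-303, from 249 to 282 with PBS to 341 to 373 with anti-IgD in vehicle mice. Nxt2, whose signals were 21.7 to 72.6, was not called.

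Ranbp10, a relative of Ranbp9 in a ubiquitin ligase complex, gave 243, 232, 262 and 264 with PBS and vehicle, 160.5, 144, 151 and 145 with anti-IgD and vehicle, 255, 282, 282, 265 and 288 with PBS and PF-303, and 167, 204, 194, 198 and 196 with anti-IgD and PF-303. Anti-IgD arrays lay below PBS arrays in both treatments, and those with PF-303 lay above those with vehicle. Its change was -0.68 ± 0.08 (adjusted p = 2.1e-07) with vehicle and -0.48 ± 0.07 (adjusted p = 8.6e-06) with PF-303, and PF-303 raised the anti-IgD level by 0.32 ± 0.07 (adjusted p = 0.0018). At its second probe set the change with PF-303 was -0.16 ± 0.12 and that of the anti-IgD level 0.12 ± 0.13, and neither passed. Ranbp9 was called in no comparison at its probe set of the highest mean, which can match other sequences. Its fall with anti-IgD and PF-303 was called at the second probe set and with the mean over its probe sets. The same fall was called without probe sets that can match other sequences and without the arrays of high spike-in level.

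**Figure D2:**
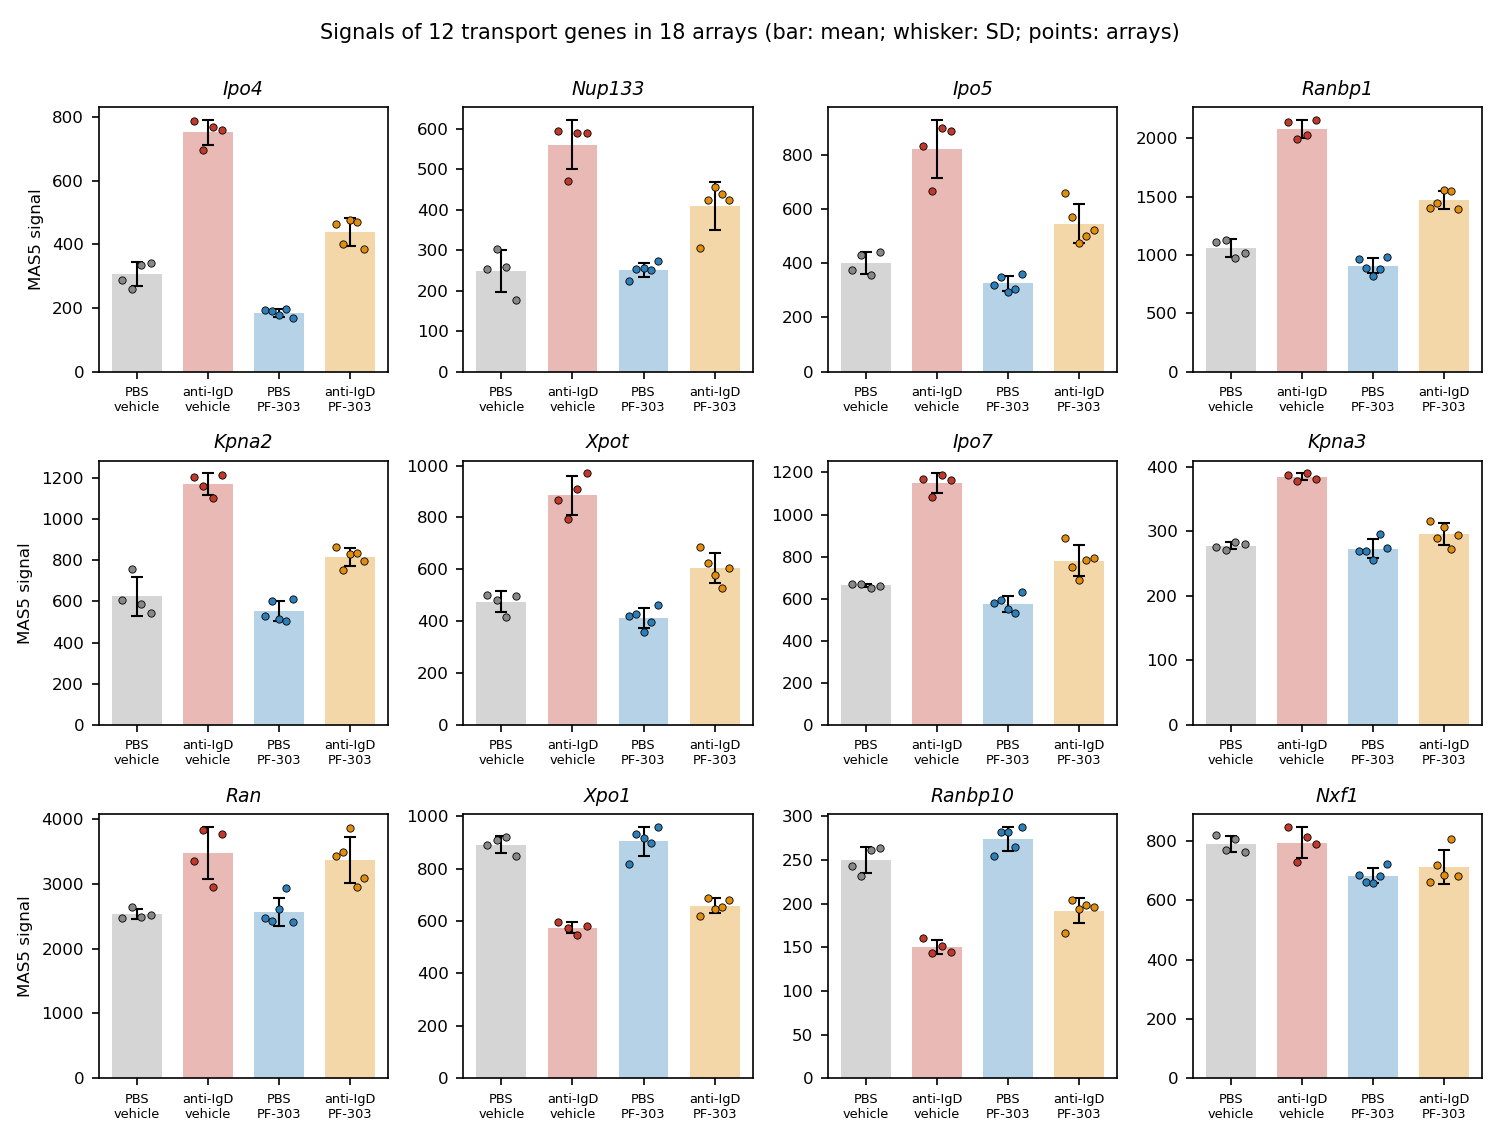
MAS5 signal of 12 genes in each of the 18 arrays by group, on a linear axis that differs between panels. Each point is 1 array, bars are group means and whiskers SDs. Ipo4 and Ipo7 each separate into 4 groups, Xpo1 and Ranbp10 lie lower with anti-IgD, and most others lie highest with anti-IgD and vehicle.

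**Figure D3:**
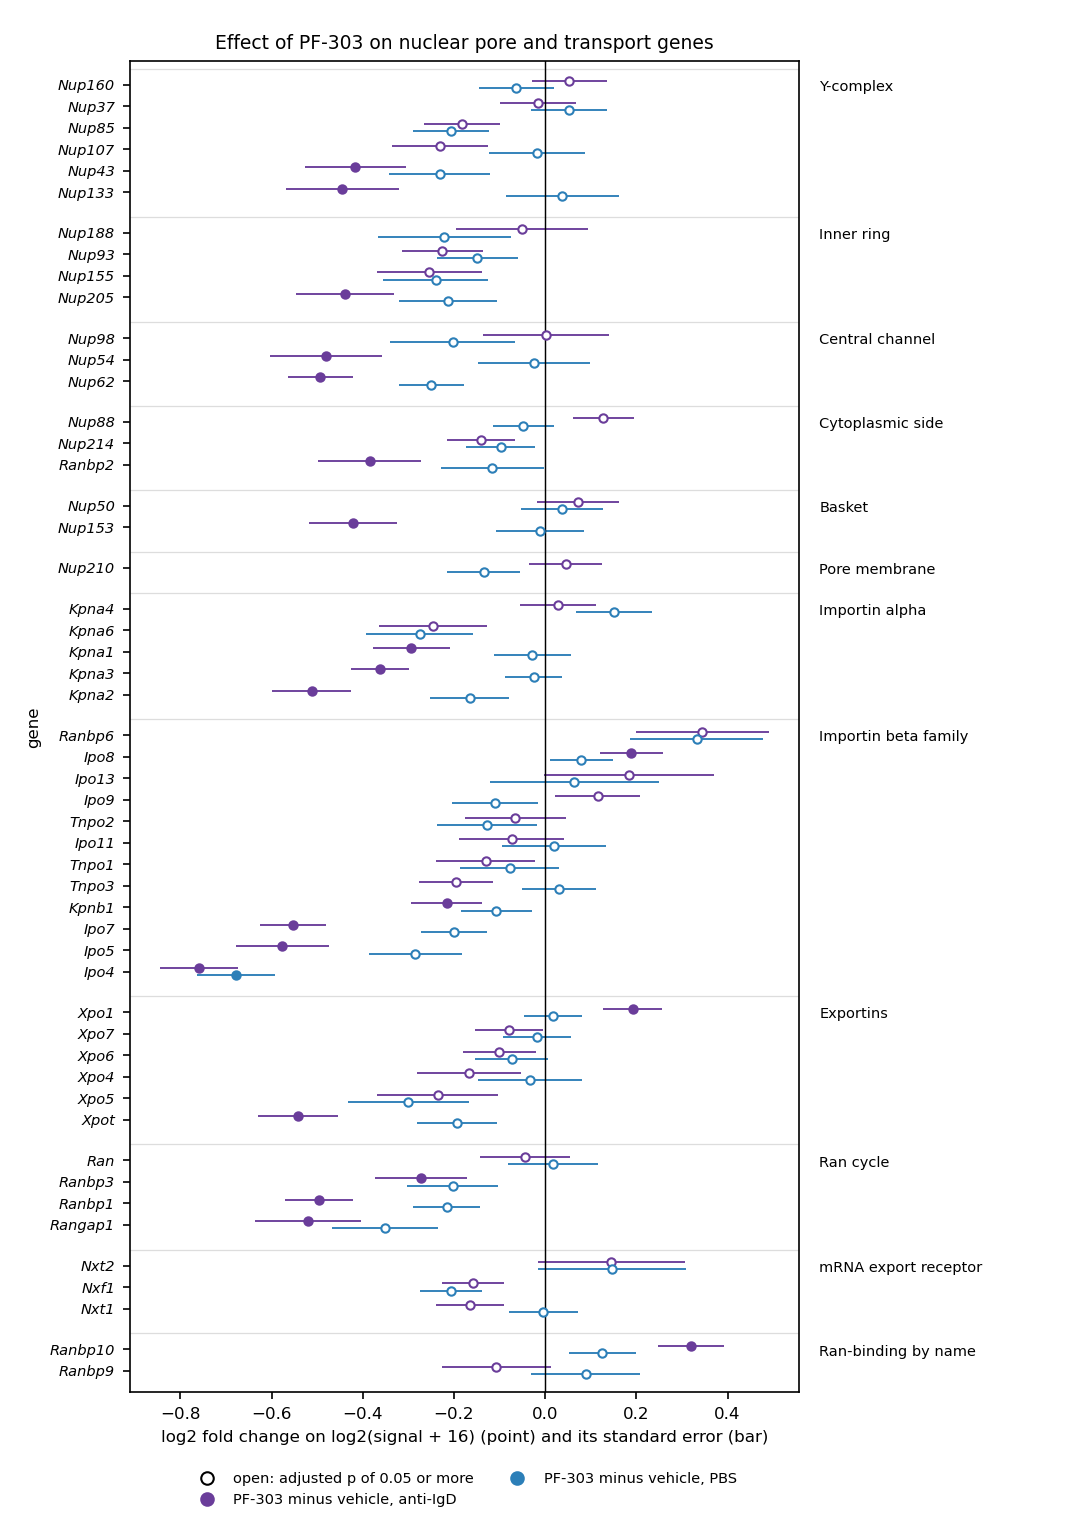
Log2 fold change of PF-303 against vehicle for the 51 tested genes, in mice given anti-IgD and in mice given PBS. Points are fitted changes, bars standard errors, and filled points have an adjusted p below 0.05; in PBS mice Ipo4 is the only filled point, at -0.68.

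Many of these genes have more than 1 probe set on the array, and the probe sets did not always give the same size or sign of change. All 119 probe sets of the 51 genes that passed the filter were fitted with the 20838 probe sets that did so in all, with p-values adjusted over them. Of the 119, 61 rose and 7 fell with anti-IgD and vehicle, where 17.3% and 25.4% of all probe sets did. In no comparison were 2 probe sets of 1 gene called in opposite directions. Among the 38 genes with several probe sets, calls with vehicle differed between probe sets for 13: Ipo7, Ipo8, Kpna6, Kpnb1, Nup133, Nup205, Nup50, Nup54, Nup85, Nup98, Nxf1, Rangap1 and Xpo4. Calls differed for 20 genes for PF-303 with anti-IgD, 16 for anti-IgD with PF-303, 9 for the difference and 1 for PF-303 with PBS. The fitted sign, called or not, differed for 4 genes with vehicle and 9 for PF-303 with anti-IgD. It differed for 12 for anti-IgD with PF-303, 13 for the difference and 23 for PF-303 with PBS. Of the calls given above, those of Ipo7 (0.30 ± 0.12), Nup62 (0.27 ± 0.12), Ran (0.23 ± 0.14) and Xpo7 (-0.12 ± 0.15) for anti-IgD with PF-303 did not pass at the probe set of the second highest mean. The same held for the change with PF-303 in anti-IgD mice of Nup43 (-0.24 ± 0.12), Nup54 (-0.26 ± 0.19), Ranbp2 (-0.20 ± 0.14), Xpo1 (0.11 ± 0.09), Ipo8 (0.10 ± 0.15) and Kpnb1 (-0.55 ± 0.33). Kpnb1 also missed with vehicle there (0.73 ± 0.35), and the difference between the responses of Kpna3 was -0.32 ± 0.12 and did not pass.

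The difference between the 2 responses was called lower at 13 of the 119 probe sets, in 9 genes (Ipo7, Kpna1, Kpna3, Kpnb1, Nup62, Ran, Ranbp2, Rangap1 and Xpot), and higher at 0, where 2.77% and 4.21% of all probe sets were called. At the probe set of the highest mean, which the rule fixes, it was called for Ipo7 and Kpna3 alone of these. Ran had 5 probe sets past the filter, of which 4 can match other sequences. At the remaining probe set the signals were 191, 201, 188 and 202 with PBS and vehicle, 400.4, 341, 391 and 406 with anti-IgD and vehicle, 186, 189.6, 169.6, 188 and 177 with PBS and PF-303, and 248, 252, 279, 269 and 245 with anti-IgD and PF-303. Here the 2 anti-IgD groups lay apart, which they did not at the probe set of the highest mean. The change of Ran at this probe set was 0.92 ± 0.08 with vehicle and 0.47 ± 0.07 with PF-303, and their difference was -0.45 ± 0.10 (limma, adjusted p = 0.010) against -0.06 ± 0.14 at the other.

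Kpnb1 behaved in a like way at its probe set of the third highest mean. There it gave 288, 271, 236 and 307 with PBS and vehicle, 619, 608, 536 and 573 with anti-IgD and vehicle, 282, 232, 283, 308 and 274 with PBS and PF-303, and 454, 324, 394, 384 and 404 with anti-IgD and PF-303, and no anti-IgD group overlapped with its PBS group. The change was 1.05 with vehicle and 0.48 with PF-303, with a difference of -0.56 (adjusted p = 0.015). For Nup62 the vehicle changes were 1.02, 0.79 and 0.99 at the 3 probe sets besides the brightest, each with a called difference (-0.75, -0.48 and -0.72). Nup98 rose by 0.71 (adjusted p = 3.0e-05) at its dimmer probe set, where PF-303 changed the anti-IgD level by -0.57. Nxf1 changed by -0.49 (adjusted p = 0.0034) at its dimmer probe set and by 0.01 at the bright one. Nup50 rose by 0.60 and Nup85 by 0.43 at a dimmer probe set, against -0.06 and 0.10. Xpo1 fell at both of its probe sets, with changes of -0.62 and -0.51. Besides the brightest probe set, Kpna3 had 2 more with differences of -0.32 and -0.31 that were not called, and Ipo7 had 1 that was called (-0.59) and 1 that was not (-0.24).

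**Figure D4:**
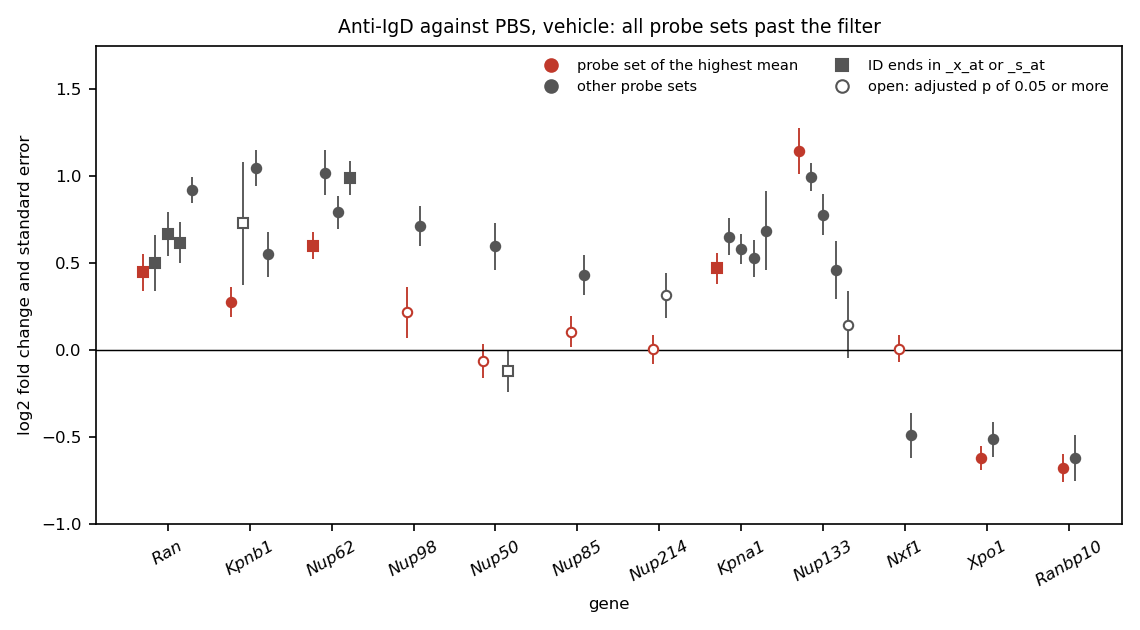
Log2 fold change with anti-IgD in vehicle-treated mice at every probe set past the filter of 12 genes, chosen after their values were seen. Each point is 1 probe set with its standard error, red marks the probe set of the highest mean and open symbols an adjusted p of 0.05 or more. For several genes, among them Ran, Kpnb1, Nup62 and Nup98, the probe set of the highest mean gives the smallest change.

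Other genes of the pathway were read in the same fit as 2 lists. Of 18 further pore and Ran-cycle genes, 11 rose (61.1%) and 2 fell (11.1%) with anti-IgD and vehicle, with a median of 0.33. Of all genes 17.4% rose and 30.6% fell, with a median of -0.13. The largest changes were those of Rcc1, the exchange factor that loads Ran with GTP on chromatin (0.78 ± 0.13), Ahctf1, which seeds pore assembly (0.71 ± 0.11), Eny2, a subunit of the basket-bound TREX-2 complex (0.66 ± 0.08), and Rangrf, which binds Ran (0.62 ± 0.14). PF-303 lowered 7 of these 18 and raised 1 in anti-IgD mice, where 10.4% of all genes were lower and 19.8% higher. In PBS mice it changed 0, where 0.675% of all genes were lower and 0.072% higher. With PF-303 anti-IgD raised 5 and lowered 1, against 14.7% and 19.1% of all genes. The pore membrane protein Pom121 had the list's 1 called difference between responses (-0.44 ± 0.10, adjusted p = 0.0074). Of all genes 3.12% were called in that direction and 6.66% in the other.

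Of 16 genes of mRNA export and the TREX complex, which couples splicing to export, 7 rose and 1 fell with vehicle, with a median of 0.24. These are 43.8% and 6.25% of the list, beside 17.4% and 30.6% of all genes. The adaptor Alyref rose by 0.80 ± 0.08, the TREX subunit Thoc1 by 0.79 ± 0.13, the helicase Ddx39a by 0.60 ± 0.08 and the cap-binding subunit Ncbp2 by 0.57 ± 0.11. PF-303 lowered 6 in anti-IgD mice (37.5%, against 10.4% of all genes) and raised 0 (19.8% of all genes). In PBS mice it changed 0, where 0.675% of all genes were lower and 0.072% higher. With PF-303 anti-IgD raised 6 (37.5%) and lowered 2 (12.5%), against 14.7% and 19.1% of all genes. Responses differed for Alyref (-0.35 ± 0.10, adjusted p = 0.035) and Thoc7 (-0.44 ± 0.12, adjusted p = 0.024), 12.5% of the list. Of all genes 3.12% were called in that direction and 6.66% in the other.

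At the probe set of the highest mean, 28 of the 51 genes (54.9%) were called in at least 1 comparison and 23 in none, where 56.0% of all genes were called in at least 1. The 23 include 4 of 6 Y-complex genes, 7 of 12 importin beta family genes and 3 of 6 exportins. Among the 23, Kpna6, Nup50, Nup85, Nup214, Nxf1, Ranbp9 and Xpo4 were called in some comparison at another probe set. A p that misses the threshold does not show that a gene stayed the same: the median standard error over all genes was 0.13 for a response and 0.17 for the difference between responses.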

How the data were processed

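The deposited table holds one intensity per probe set and array: per the submitters' processing notes the authors used MAS5, whose signal combines the probes of a set on a linear scale, and its 2%-trimmed mean was 99.96 to 99.97 in every array. MAS5 version and settings are not given in the sources used here. Probe sets were named from the platform annotation: of 45101, 64 are controls, 34958 have 1 gene symbol, 932 several and 9160 none. Probe sets were kept if their signal exceeded 15.2, the median over the table, in 4 or more arrays, and each gene was read at the one of highest mean. Intensities were tested as log2(signal + 16), which understates changes of dim genes, with limma 3.58.1 in R 4.3.3 (lmFit, eBayes with trend, 1 mean per group, all 18 arrays, two-sided, Benjamini-Hochberg over 11106 genes, called below 0.05). An ID ending in _x_at or _s_at marks probes that can match more than 1 sequence. The 95% intervals use the normal quantile and not that of limma's moderated t, which would make them wider.

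The script was tested on simulated data for anti-IgD against PBS in vehicle mice: of 200 changed genes among 11106, it recovered 47% of those changed by 0.5 and 94% of those changed by 1 (log2), with 7 false calls. The simulated noise was independent between genes and arrays. Far fewer genes were changed than the 1928 higher and 3394 lower called in the data, so these rates need not hold for the data. The number of arrays limits precision. Members and lists were chosen with earlier results of these data known. Genes described array by array were those of largest change among the called (10 for anti-IgD with vehicle, 4 for each other comparison) with Ran, Xpo1, Kpnb1, Kpna2, Nxf1 and Nup98. Same-numbered arrays did not deviate together (24 pairs, correlations -0.161 to 0.225), so replicate numbers were not used as pairs. Alternatives covered the offset, filter, scaling, probe set, blocks, spike-in level, variance moderation and each array left out. One, leaving out _x_at and _s_at probe sets, was chosen after seeing the data. Promoter sequences are RefSeq's (GRCm38.p6).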

Additional observations from a re-analysis of the deposited data

Results flagged for a closer look

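Among 64 combinations of 16 genes and 4 groups, 5 held 1 array far from the others by Dixon's test, where chance gives about 1 in 20. In anti-IgD and vehicle replicate 2, Kpnb1 was lowest at 584 (the others 655 to 661) and so was Nup133 at 470.2 (590.4 to 595). In anti-IgD and PF-303 replicate 1, Nup133 was lowest at 307 (424 to 457), Ranbp10 was lowest at 167 (194 to 204) and Nup98 was highest at 629.7 (356 to 430.3). That array also had a high ratio of 3′ to 5′ control signal (Actb 1.40, Gapdh 1.11), whose part was not tested. The responses to anti-IgD with PF-303 and with vehicle differed, by limma's test of the difference itself, for Ipo7 (-0.35, log2) and Kpna3 (-0.34), both smaller with PF-303.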

How the results depend on the processing

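Of 67 calls made for these genes, 36 were made again in every other setting run for that gene (14 or 15) and in all 18 fits without 1 array, and 11 were lost in some fit without 1 array. Without 1 array each, members called with anti-IgD and vehicle were 20 to 24 higher and 3 to 5 lower (median 0.16 to 0.22). For PF-303 with anti-IgD they were 1 to 3 higher and 16 to 21 lower (median -0.20 to -0.15), and for anti-IgD with PF-303 14 to 17 higher and 2 to 3 lower (median 0.096 to 0.158). For PF-303 with PBS the count stayed at 1 lower, and 1 to 4 were called for the difference between responses. With arrays shifted to one median, anti-IgD with vehicle gave 32 higher, 2 lower and a median of 0.36, PF-303 with anti-IgD gave 1 higher and a median of -0.276, and the difference gave 10 lower and -0.192. The median for anti-IgD with vehicle was 0.139 at offset 64, 0.258 after quantile normalization and 0.388 at the probe set of the second highest mean. The median for PF-303 with anti-IgD was -0.222, -0.23 and -0.251 after quantile normalization, with the mean over probe sets and at the second probe set, and 1 was higher with each of the last 2. The second probe set could be read for 38 of the 51 genes, among 5408 genes in all. There PF-303 with PBS lowered 0 of the 38 (median -0.00595) and the median difference was -0.266. Anti-IgD with PF-303 raised 7 of the 38 there and 678 of all 5408 genes. With the position-code row as a block, PF-303 with anti-IgD gave 1 higher and 10 lower and the difference 0. Of all 11106 genes 1069 were then higher and 656 lower for PF-303 with anti-IgD, and 189 and 102 for the difference. The difference gave 4 of 47 genes with the stricter filter (signal above 100), 9 of 51 with the mean over probe sets and 5 of 50 without _x_at and _s_at probe sets. Of all genes in these settings 418 of 6844, 482 of 11106 and 347 of 10778 were lower. The 5 without _x_at and _s_at probe sets were Ipo7, Kpna3, Nup54, Nup62 and Ran. Without the arrays of high spike-in level the median for anti-IgD with PF-303 was 0.0946. Directions turned for Nxf1 with anti-IgD and vehicle (-0.24 with the mean over probe sets, -0.49 at the second), PF-303 with anti-IgD (0.49 at the second) and anti-IgD with PF-303 (-0.32 at the second), for Ipo8 with anti-IgD and vehicle (0.0296 at the second) and for Nup98 with PF-303 and anti-IgD (-0.29 with the mean, -0.57 at the second). The cause was not tested. With the replicate number as a block, where the labels do not say that numbers pair the samples, members called were 22 higher and 4 lower with anti-IgD and vehicle, 3 and 18 for PF-303 with anti-IgD, 0 and 1 for PF-303 with PBS, 21 and 4 for anti-IgD with PF-303, and 0 and 2 for the difference. These were not all the same genes as without the block. With anti-IgD and vehicle, Nup188 and Nxt2 were gained and Ipo8 was lost. PF-303 with anti-IgD gained Ranbp6 and lost Ipo8. Anti-IgD with PF-303 gained Kpna1, Nup153, Nup205, Nup54, Nup93, Ranbp3 and Nxt2. The difference gained Nup153 and lost Ipo7.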
